A study of Mus musculus with 8 samples.

Results

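The slow-twitch contractile genes are 9 genes that encode the myosin, troponin and tropomyosin isoforms and the calcium pump of slow muscle fibers: Myh7, Myh7b, Myl2, Myl3, Tnnc1, Tnni1, Tnnt1, Tpm3 and Atp2a2. They were taken by symbol from a list, and each had 1 row among the 27041 rows of the count table. All 9 had a mean count above 50 over the 6 libraries and so were among the 11364 genes tested.

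The study compared muscles of mice with and without LSD1, a histone demethylase encoded by Kdm1a, in myofibers. Both groups were male mice of strain C57BL/6J at 9 weeks of age and homozygous for a floxed allele (LSD1 L2/L2) in which loxP sites flank exon 1 of Kdm1a. LSD1skm-/- mice also carried HSA-Cre, which is active in myofibers, whereas Ctrl mice had no Cre, so the cells of the muscle other than myofibers were not targeted. The labels give skeletal muscle as the tissue, the study describes it as gastrocnemius, and RNA came from the whole muscle. Whether the soleus, a muscle rich in slow fibers that lies against the gastrocnemius, was removed from the samples sequenced is not given in the sources used here, although the study weighed the muscles separately in mice of this genotype and age. Of 8 labelled libraries, 4 per group, counts were read for Ctrl replicates 1 to 4 and LSD1skm-/- replicates 1 and 2, and LSD1skm-/- replicates 3 and 4 were not analysed here. Ctrl replicates 1 to 4 held 36355538, 32616912, 36213735 and 41278769 counts, and LSD1skm-/- replicates 1 and 2 held 30654828 and 37788092.

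In a sarcomere, heads of myosin in the thick filament pull on actin in the thin filament, and calcium starts this by binding troponin, which moves tropomyosin aside. Slow and fast fibers carry out the same steps with different isoforms of nearly every protein, which sets how quickly a fiber shortens, relaxes and tires. The mouse gastrocnemius is known as a muscle made mostly of fast fibers, and several slow isoforms are also those of the heart ventricle.

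The targeted gene was read first, as a check of the labels. Values are CPM, counts scaled to a common library size with TMM factors, unless another scale is named. Ctrl replicates 1 to 3 had 22.9, 22.0 and 28.1 CPM of Kdm1a, while the LSD1skm-/- libraries had 2.96 and 3.48 CPM. With 3.66 CPM, the library labelled Ctrl replicate 4 lay beside the LSD1skm-/- libraries and against its label. The estimate for Kdm1a was -2.56 on the log2 scale with all 6 libraries and -2.91 without that library. Over the counts of all genes tested, that library had a chi-square per degree of freedom of 32.9 and 46.5 with LSD1skm-/- replicates 1 and 2. With Ctrl replicates 1 to 3 the values were 70.3, 67.8 and 95.4. A lower value means a closer pair, but the value also grows with library depth and weighs abundant genes most. Groups follow the labels as deposited, and the main comparisons are also given without that library. The tissue label was borne out by its markers, since Acta1 lay between 31170 and 36620 CPM and Ckm between 27750 and 31860 CPM over the 6 libraries.

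All 9 slow-twitch genes had lower estimates in LSD1skm-/- than in Ctrl muscle. Their median log2 fold change was -1.52, against -0.01 over all genes tested. The 2 LSD1skm-/- libraries lay below all 4 Ctrl libraries in 8 of the 9 genes, as they did in 8.02% of all genes tested. The exception was Myl3. Of the 9 genes, 8 were lower and 0 higher at an unadjusted p under 0.05 in edgeR's quasi-likelihood test, against 3.88% lower and 5.02% higher of all genes. After Benjamini-Hochberg adjustment over the 11364 genes, edgeR called 0 genes (0%) with all 6 libraries, hence none of the 9, although 1011 genes had an unadjusted p under 0.05. DESeq2's Wald test called 46 genes, with 0.246% of all genes lower, and among the 9 it called Myh7, Tpm3 and Atp2a2, all lower. DESeq2 called 3.06% of all genes lower without the library labelled Ctrl replicate 4, and Tnnc1 and Myh7b besides those 3.

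Without the library labelled Ctrl replicate 4, edgeR called 612 genes at an adjusted p under 0.05, 1.02% of all genes lower and 4.36% higher. Of the slow-twitch genes it called 2 lower, Myh7 and Tpm3, and 0 higher. At an unadjusted p under 0.05, 8 of the 9 were lower and 0 higher, against 7.72% lower and 12.5% higher of all genes. The median log2 fold change of the 9 genes was then -1.54, with -2.45 for Myh7, -1.28 for Myh7b, -0.95 for Myl2 and -0.41 for Myl3. The troponin genes had -2.12 (Tnnc1), -1.54 (Tnni1) and -1.60 (Tnnt1), and Tpm3 and Atp2a2 had -1.85 and -1.06. In bulk muscle, fewer slow fibers in the tissue taken and less of these transcripts per fiber cannot be told apart.

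The library labelled Ctrl replicate 4 lay with the other Ctrl libraries for these genes. It lay within the range of Ctrl replicates 1 to 3 for 7 of the 9 genes, against 33.1% of all genes tested. For Myh7 it was the lowest Ctrl library, and for Myh7b it was level with the highest. The LSD1skm-/- libraries lay below Ctrl replicates 1 to 3 in 8 slow-twitch genes, and in all 8 the library labelled Ctrl replicate 4 was above both of them. Over all genes, 1969 had LSD1skm-/- libraries below Ctrl replicates 1 to 3, and in 46.3% of those the library labelled Ctrl replicate 4 was above both.

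**Figure D1:**
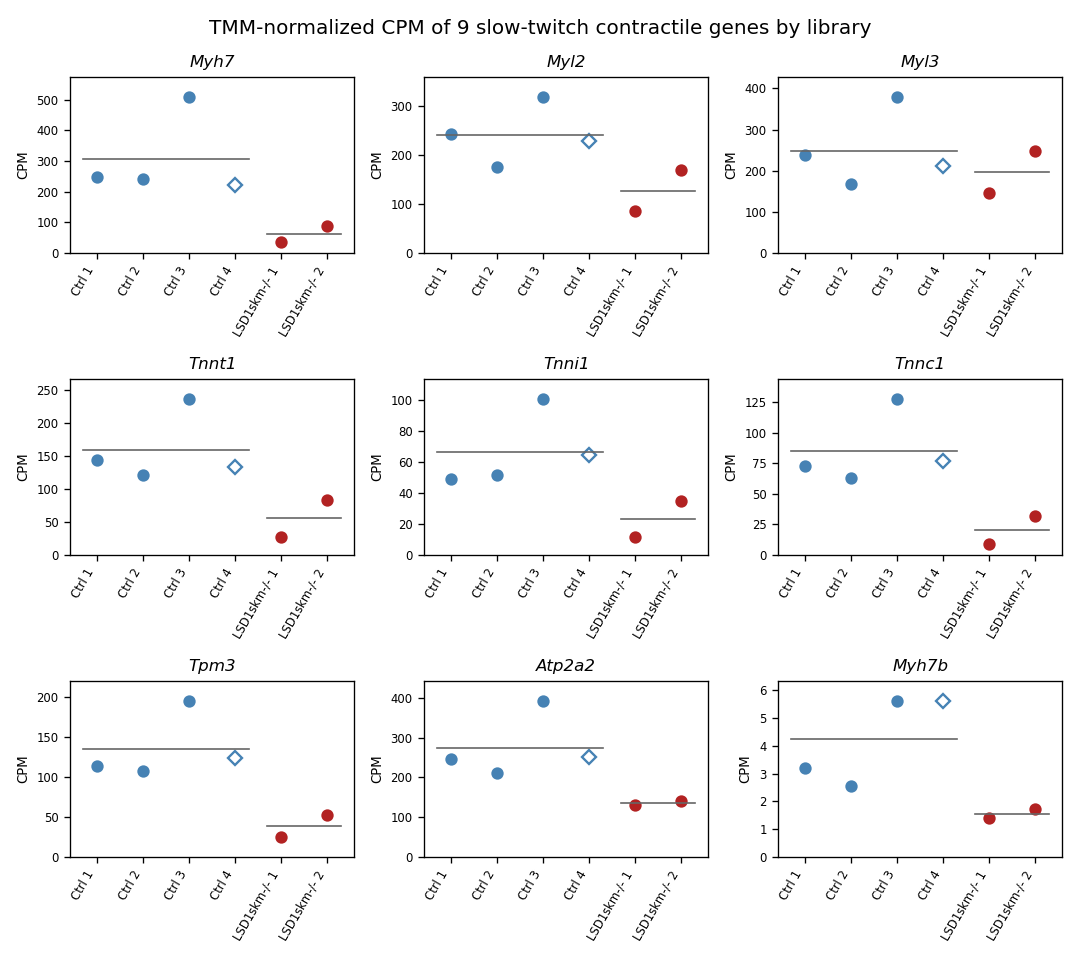
TMM-normalized CPM of the 9 slow-twitch contractile genes on linear axes that start at 0, with 1 point per library, blue for Ctrl and red for LSD1skm-/-, and lines at the group means. The open diamond is the library labelled Ctrl replicate 4, and the 2 LSD1skm-/- points lie below all 4 Ctrl points in every panel but that of Myl3.

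Myh7 encodes the myosin heavy chain of slow fibers, the motor of the thick filament. It stood at 247, 242, 510 and 222 CPM in Ctrl replicates 1 to 4 and at 35.3 and 86.5 CPM in LSD1skm-/- replicates 1 and 2. Ctrl replicate 3 was far above the other Ctrl libraries, the LSD1skm-/- libraries also differed from each other by 2.45-fold, and the groups did not overlap. Group means were 305 ± 137 CPM (SD, n = 4) and 60.9 ± 36.2 CPM (SD, n = 2). The log2 fold change was -2.32 (standard error 0.49), a 5.01-fold lower level, and the largest of the 9 in this fit. Without LSD1skm-/- replicate 2 that of Tnnc1 was larger, with -3.28 against -3.11 for Myh7. Its adjusted p was 0.557 in edgeR's quasi-likelihood test (unadjusted 0.00166), 0.0313 in the same test without the library labelled Ctrl replicate 4 and 0.0403 by DESeq2 with all 6 libraries. Over all alternatives its adjusted p ran from 5.84e-05 to 0.947 in edgeR or DESeq2.

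Myh7 spans chr14:54970684-54994626 on the minus strand of GRCm38, and its longest coding transcript has 41 exons. Over all its annotated transcripts, Myh7 shares 20% of its 50-base stretches with other genes, mainly the cardiac gene Myh6. Reads from such stretches cannot be assigned to either. Myh6 itself had between 28 and 58 reads per library. The opposite-strand genes Mhrt, Gm29015 and Gm31251 overlap exons of Myh7 and had at most 21 reads each. The kit marks strand, and whether the counting used it is not given in the sources used here.

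The 120 bases upstream of the annotated exons of Myh7, chr14:54994627-54994746 of GRCm38.p6 (RefSeq, minus strand), are shown 5′ to 3′ because Myh7 encodes the slow motor itself and the promoters of the other members can be set beside it. Capitals here and in the promoters further on mark, on either strand, matches to the E-box CANNTG, to the MCAT element GGAATG, to the TATA box letters TATAAA, to the related letters TATATA and to the half-site of the glucocorticoid receptor, AGAACA.
Myh7: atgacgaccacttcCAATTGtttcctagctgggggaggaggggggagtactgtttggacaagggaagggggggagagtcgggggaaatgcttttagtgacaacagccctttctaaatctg

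Myh7b encodes a related myosin heavy chain of slow and cardiac muscle that is made at low levels. It stood at 3.21, 2.56, 5.62 and 5.62 CPM in Ctrl replicates 1 to 4 and at 1.39 and 1.73 CPM in LSD1skm-/- replicates 1 and 2. Ctrl replicates 3 and 4 were the highest, and the groups did not overlap. These values rest on few reads, from 44 in LSD1skm-/- replicate 1 to 246 in Ctrl replicate 4. With all 6 libraries its log2 fold change was -1.45 (standard error 0.39), which edgeR's quasi-likelihood test gave an adjusted p of 0.557, and the alternatives, DESeq2 among them, from 0.0152 to 0.947. Myh7b spans chr2:155611212-155634307 on the plus strand, and its exons overlap those of Trpc4ap on the opposite strand, which lay between 126 and 146 CPM in all 6 libraries (log2 fold change -0.02).

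Both slow myosin genes carry a microRNA in an intron. The mature strands are shown for their similar seeds (bases 2 to 8, in capitals), as RefSeq gives them on GRCm38.p6. mmu-miR-208b-3p lies in intron 31 of Myh7 (chr14:54975710-54975731, minus strand) and mmu-miR-499-5p in intron 19 of Myh7b (chr2:155622893-155622913, plus strand).
mmu-miR-208b-3p: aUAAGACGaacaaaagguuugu
mmu-miR-499-5p: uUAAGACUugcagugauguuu
The seeds have 6 of 7 bases in common. The libraries were made from polyadenylated RNA, so the host transcripts were measured and the microRNAs were not.

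Myl2 and Myl3 encode the regulatory and essential light chains that wrap the neck of the slow and ventricular myosin head. Myl2 stood at 242, 176, 320 and 229 CPM in Ctrl replicates 1 to 4 and at 84.8 and 169 CPM in LSD1skm-/- replicates 1 and 2. The groups stayed apart by a narrow margin, since the lowest Ctrl library was 1.04-fold above the higher LSD1skm-/- library. Group means were 242 ± 59.2 CPM (SD, n = 4) and 127 ± 59.7 CPM (SD, n = 2). Its log2 fold change of -0.93 (standard error 0.32) had an adjusted p of 0.557 in edgeR's quasi-likelihood test, with a range of 0.0384 to 0.947 over the alternatives.

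Myl3 stood at 237, 166, 380 and 211 CPM in Ctrl replicates 1 to 4 and at 145 and 248 CPM in LSD1skm-/- replicates 1 and 2. The groups overlapped, because LSD1skm-/- replicate 2 was above every Ctrl library except replicate 3. The log2 fold change of -0.34 had a standard error of the same size (0.34), and its adjusted p was 0.753 in edgeR's quasi-likelihood test and at least 0.572 under each alternative. It was the smallest difference of the 9 genes and did not exceed the spread between libraries, although the other 5 libraries had the same order as in Myl2. The stretch before the start of its longest coding transcript, chr9:110763526-110763645 on the plus strand (RefSeq, GRCm38.p6), is shown as that of the member whose groups overlapped. It lies within the gene, in an intron of a transcript that starts further upstream.
Myl3: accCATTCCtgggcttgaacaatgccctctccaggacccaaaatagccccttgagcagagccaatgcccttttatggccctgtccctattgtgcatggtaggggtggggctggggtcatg

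Troponin has 3 subunits, of which Tnnc1 encodes the calcium sensor of slow and cardiac muscle. Tnnc1 stood at 72.9, 63.4, 128 and 77.1 CPM in Ctrl replicates 1 to 4 and at 8.79 and 31.7 CPM in LSD1skm-/- replicates 1 and 2. LSD1skm-/- replicate 1 was far below every other library, 3.61-fold under replicate 2 of its group, and the groups did not overlap. Group means were 85.4 ± 29.1 CPM (SD, n = 4) and 20.3 ± 16.2 CPM (SD, n = 2). The log2 fold change was -2.07 (standard error 0.52), with an adjusted p of 0.557 in edgeR's quasi-likelihood test, 0.0743 in that test without the library labelled Ctrl replicate 4 and 0.0984 by DESeq2 with all 6 libraries. Over all alternatives its adjusted p ran from 0.00116 to 0.947 in edgeR or DESeq2. The 120 bases before its start, chr14:31208192-31208311 on the plus strand (RefSeq, GRCm38.p6), hold a TATATA match and a GGAATG match.
Tnnc1: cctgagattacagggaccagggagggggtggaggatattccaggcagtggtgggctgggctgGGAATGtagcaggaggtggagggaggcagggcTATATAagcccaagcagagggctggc

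Tnni1 encodes the slow inhibitory subunit, which holds back the contact of myosin with actin until calcium binds. It stood at 49.0, 51.2, 101 and 64.3 CPM in Ctrl replicates 1 to 4 and at 11.4 and 34.5 CPM in LSD1skm-/- replicates 1 and 2. Here the library labelled Ctrl replicate 4 was the second highest, and the groups did not overlap. Group means were 66.3 ± 23.9 CPM (SD, n = 4) and 23.0 ± 16.3 CPM (SD, n = 2), and the log2 fold change was -1.53 (standard error 0.48). Its adjusted p was 0.557 in edgeR's quasi-likelihood test, and from 0.00612 to 0.947 over the alternatives. The stretch shown, chr1:135799282-135799401 on the plus strand (RefSeq, GRCm38.p6), lies before a coding transcript's start and in an intron of a transcript that starts further upstream. It was the only one of the 7 promoters searched with an AGAACA match, on the opposite strand and so read as tgttct.
Tnni1: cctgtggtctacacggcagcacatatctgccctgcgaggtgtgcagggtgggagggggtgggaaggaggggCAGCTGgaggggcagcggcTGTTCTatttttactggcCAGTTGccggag

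Tnnt1 encodes the slow subunit that ties troponin to tropomyosin. It stood at 144, 121, 237 and 133 CPM in Ctrl replicates 1 to 4 and at 26.7 and 83.9 CPM in LSD1skm-/- replicates 1 and 2. The lowest Ctrl library was 1.44-fold above the higher LSD1skm-/- library, and the groups did not overlap. Its level was 2.87-fold lower, a log2 fold change of -1.52 (standard error 0.47), and edgeR's quasi-likelihood test gave an adjusted p of 0.557, which ran from 0.00885 to 0.947 over the alternatives. Without LSD1skm-/- replicate 1 the log2 fold changes of Tnnc1, Tnni1 and Tnnt1 were -1.43, -0.95 and -0.93. Without LSD1skm-/- replicate 2 they were -3.28, -2.54 and -2.57. Tnni1 and Tnnt1 were called with the replicate number as a block and with every gene of at least 1 count. Each troponin gene had the same set of extremes, with Ctrl replicate 3 highest and LSD1skm-/- replicate 1 lowest.

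Tpm3 encodes the tropomyosin of slow fibers, and another start within the gene gives shorter forms made in many other cells. It stood at 114, 108, 196 and 124 CPM in Ctrl replicates 1 to 4 and at 24.9 and 52.3 CPM in LSD1skm-/- replicates 1 and 2. The lowest Ctrl library was 2.06-fold above the higher LSD1skm-/- library, so the groups were well apart. Group means were 135 ± 40.8 CPM (SD, n = 4) and 38.6 ± 19.4 CPM (SD, n = 2). The log2 fold change was -1.81 (standard error 0.36), and the adjusted p was 0.557 in edgeR's quasi-likelihood test, 0.0363 in the same test without the library labelled Ctrl replicate 4 and 7.72e-05 by DESeq2 with all 6 libraries. Its adjusted p over all alternatives ran from 7.72e-05 to 0.947 in edgeR or DESeq2.

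Counts were given per gene, so the muscle form and the shorter forms of Tpm3 were not separated. Over all its annotated transcripts, Tpm3 shares 23.2% of its 50-base stretches with other genes, mainly the copy Tpm3-rs7. That copy had between 4 and 56 reads per library against 790 to 6752 for Tpm3. The stretch before the upstream start, chr3:90072529-90072648 on the plus strand (RefSeq, GRCm38.p6), had none of the matches marked by capitals.
Tpm3: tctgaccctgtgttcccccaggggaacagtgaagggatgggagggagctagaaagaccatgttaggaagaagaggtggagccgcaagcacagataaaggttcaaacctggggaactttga

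Atp2a2 encodes SERCA2, the pump that returns calcium to the sarcoplasmic reticulum in slow fibers and heart and, as another splice form, in most cells. It stood at 246, 211, 393 and 251 CPM in Ctrl replicates 1 to 4 and at 131 and 142 CPM in LSD1skm-/- replicates 1 and 2. The LSD1skm-/- libraries were nearly equal, unlike in the troponin genes, and both were below every Ctrl library. Group means were 275 ± 80.8 CPM (SD, n = 4) and 136 ± 7.71 CPM (SD, n = 2). The log2 fold change was -1.02 (standard error 0.25), with an adjusted p of 0.557 in edgeR's quasi-likelihood test, 0.0625 in that test without the library labelled Ctrl replicate 4 and 0.0107 by DESeq2 with all 6 libraries. Its adjusted p over all alternatives ran from 0.000391 to 0.947 in edgeR or DESeq2. The splice forms were counted together.

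**Figure D2:**
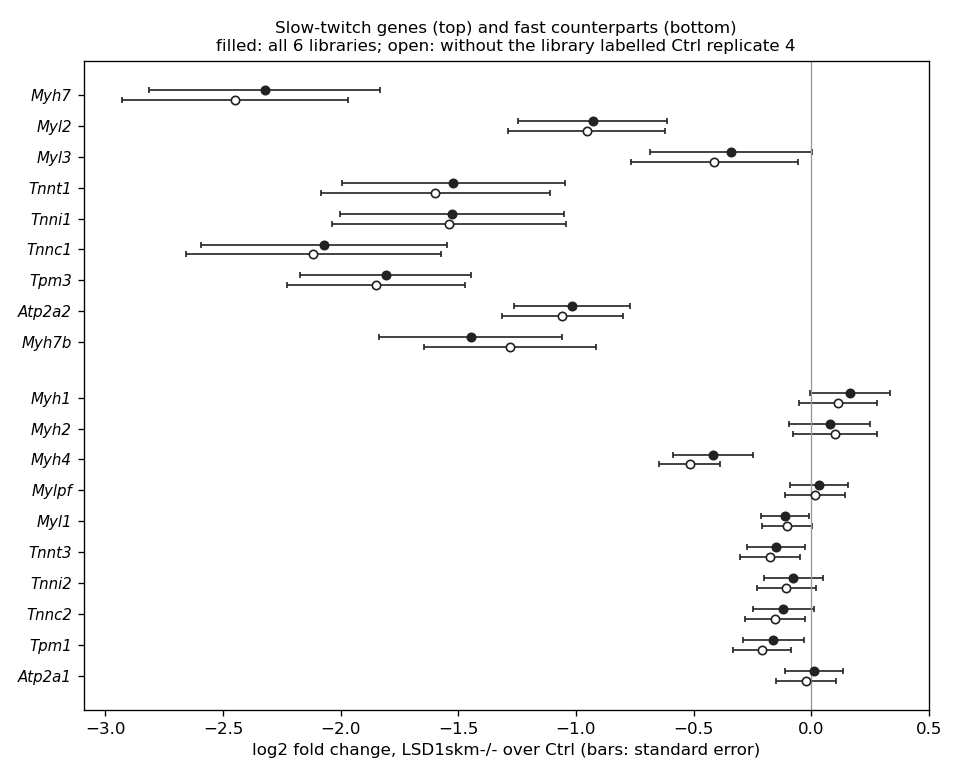
Log2 fold changes of LSD1skm-/- over Ctrl with standard errors from edgeR, for the 9 slow-twitch genes (top) and their 10 fast counterparts (bottom), with all 6 libraries (filled) and without the library labelled Ctrl replicate 4 (open). The slow-twitch genes lie between -2.32 and -0.34 with all 6 libraries, and the fast counterparts between -0.42 and 0.17.

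Levels of different genes can be set side by side only per length, here as CPM per kb of the longest coding transcript. In Ctrl muscle the light chains led, Myl2 with 332 ± 81.2 and Myl3 with 265 ± 98.6 CPM per kb (SD, n = 4), followed by Tnnt1 with 150 ± 50.1 and Tnnc1 with 118 ± 40.3. Atp2a2 (61.4 ± 18.0), Tpm3 (60.6 ± 18.3), Tnni1 (57.7 ± 20.8) and Myh7 (49.0 ± 22.0) formed a group whose neighbours differed by less than their SD. Myh7b was far lower, at 0.690 ± 0.260 CPM per kb. In LSD1skm-/- muscle Myl3 was the highest, with 210 ± 77.6 CPM per kb (SD, n = 2), and Myh7 was at 9.78 ± 5.81 CPM per kb, next to last before Myh7b. The place of Myl2 and Myl3 in this order differed between the groups by less than their spread.

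The 9 genes also varied together among libraries of the same group. LSD1skm-/- replicate 1 was the lowest of the 6 libraries in all 9 genes, and Ctrl replicate 3 the highest in 8 of 9. The shares of all genes with these libraries at the extremes are not given here. Within Ctrl, the highest library exceeded the lowest by between 1.81-fold for Myl2 and 2.30-fold for Myh7. Between the LSD1skm-/- libraries the ratio ran from 1.08-fold for Atp2a2 to 3.61-fold for Tnnc1. The summed CPM of the 9 genes was 1356, 1141, 2270 and 1316 in the 4 Ctrl libraries and 469 and 849 in the LSD1skm-/- libraries. LSD1skm-/- replicate 1 thus set much of the size of the difference, and without it the median log2 fold change of the 9 genes was -0.96 and 4 of them, Myh7, Tnnc1, Tpm3 and Atp2a2, had an unadjusted p under 0.05 in edgeR's test, against 4.32% of all genes lower in that fit. Without LSD1skm-/- replicate 2 the median was -2.44. The log2 fold changes of Myh7, Tpm3, Myl2 and Myl3 were -1.82, -1.38, -0.52 and -0.01 without LSD1skm-/- replicate 1. They were -3.11, -2.44, -1.51 and -0.78 without LSD1skm-/- replicate 2.

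The fast counterparts carry out the same steps in fast fibers. Of 10 such genes, 6 had lower estimates in LSD1skm-/- muscle and 1, Myh4, was lower at an unadjusted p under 0.05, with a median log2 fold change of -0.09. Myh4, the heavy chain of the fastest fibers and the gene with the highest CPM of all genes tested, differed by -0.42 on the log2 scale (standard error 0.17), with an adjusted p of 0.557 in edgeR's quasi-likelihood test. It stood at 52910, 51340 and 57080 CPM in Ctrl replicates 1 to 3 and at 39800 and 35250 CPM in LSD1skm-/- replicates 1 and 2. The library labelled Ctrl replicate 4 lay between the LSD1skm-/- libraries, at 39180 CPM, so the groups overlapped. The value for Myh4 was -0.52 without the library labelled Ctrl replicate 4, with an adjusted p of 0.0662 in edgeR and 0.000182 in DESeq2, and over all alternatives the adjusted p ran from 0.000182 to 0.947. The heavy chain genes Myh1 and Myh2 had values of 0.17 and 0.08. The median of the 10 genes was 0.01 without LSD1skm-/- replicate 1 and -0.10 without the library labelled Ctrl replicate 4, and Atp2a1, Myh2, Mylpf, Tnni2 and Tnnc2 changed sign under at least 1 alternative. The log2 ratio of a slow gene to its own counterpart in CPM per kb was negative in all 8 pairs and all 6 libraries.

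A ratio of a slow gene to its fast counterpart within a library does not depend on scaling between libraries. The log2 ratio of Myh7 to the sum of Myh1, Myh2 and Myh4 was -7.92, -7.88, -6.95 and -7.65 in the 4 Ctrl libraries, in the order of their replicate numbers, and -10.34 and -8.90 in the LSD1skm-/- libraries. Both LSD1skm-/- libraries were below every Ctrl library, and their mean was lower by 2.02 on this scale. The ratio of Tnnc1 to Tnnc2 gave -7.58, -7.61, -6.70 and -7.26 in Ctrl and -10.26 and -8.67 in LSD1skm-/- muscle, with the same separation and a difference of -2.18. The ratio of Tpm3 to Tpm1 gave -8.03, -8.04, -7.32 and -7.70 in Ctrl and -9.91 and -9.04 in LSD1skm-/- muscle. The ratios of Tnni1 to Tnni2, Tnnt1 to Tnnt3, Myl2 to Mylpf and Atp2a2 to Atp2a1 also did not overlap between the groups, with differences of -1.60, -1.55, -1.01 and -0.99. For Myl3 to Myl1 the groups overlapped, with a difference of -0.21. Without the library labelled Ctrl replicate 4 the differences lay between -2.17 for Tnnc1 and -0.28 for Myl3. The size of most differences depended on which LSD1skm-/- library was used. For Myh7 the difference was -1.30 without LSD1skm-/- replicate 1 and -2.74 without LSD1skm-/- replicate 2, and for Tnnc1 the same values were -1.39 and -2.97. In the same order they were -0.91 and -2.29 for Tnni1, -0.78 and -2.31 for Tnnt1, -1.27 and -2.14 for Tpm3 and -0.66 and -1.35 for Myl2, whereas Atp2a2 had -0.94 and -1.04. For Myl3 they were 0.14 and -0.56, and without Ctrl replicate 3 the value was 0.03, so its sign was not stable. In all, 7 of 8 pairs did not overlap, and of all genes set against the mean of the fast counterparts 4.17% were lower in both LSD1skm-/- libraries than in all Ctrl libraries.

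**Figure D3:**
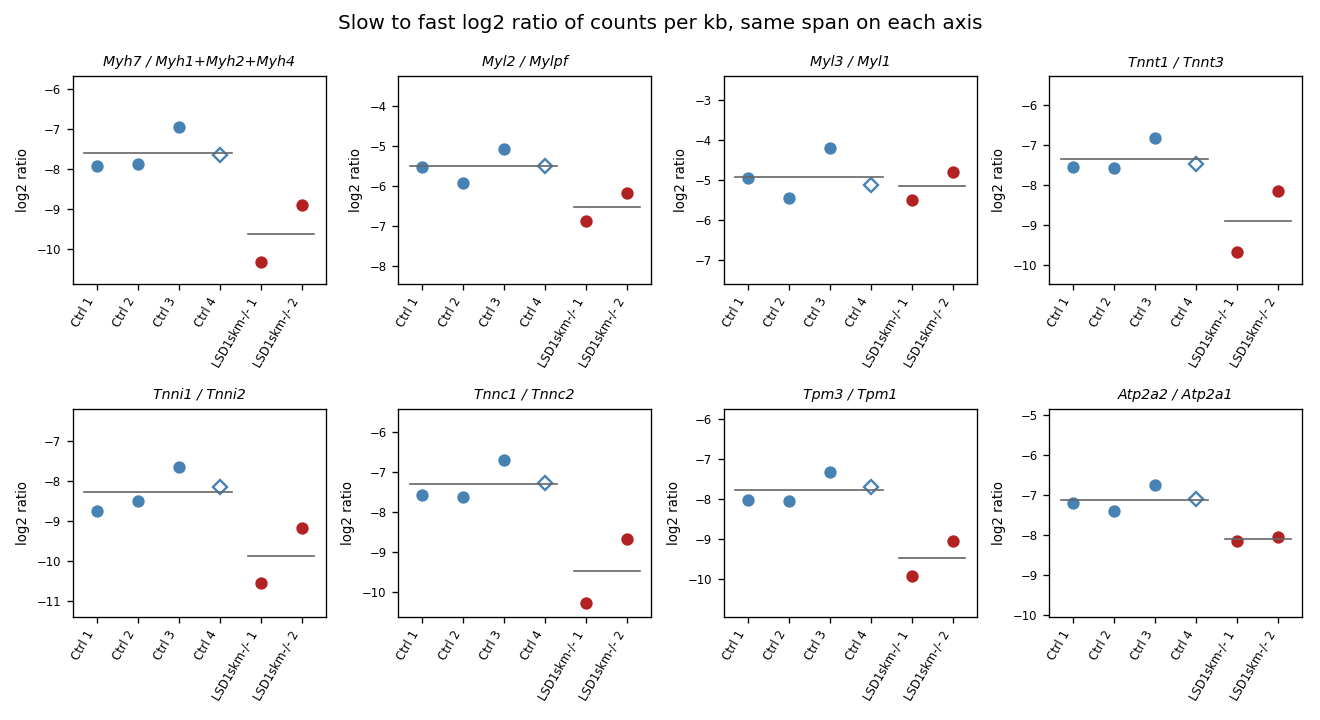
Log2 ratio of each slow gene to its fast counterpart in CPM per kb, 1 point per library, blue for Ctrl and red for LSD1skm-/-, with lines at the group means and the library labelled Ctrl replicate 4 as an open diamond. Each axis spans the same number of log2 units, and the groups overlap only for Myl3 to Myl1.

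The members were also set against Myh7, to see whether their differences had a like size. The log2 ratio of Myl3 to Myh7 in CPM per kb was 2.67, 2.19, 2.31 and 2.66 in the 4 Ctrl libraries and 4.77 and 4.25 in the LSD1skm-/- libraries. The light chain thus stood higher beside the heavy chain in both LSD1skm-/- libraries. The ratio of Tnnc1 to Myh7 was 1.35, 1.18, 1.12 and 1.59 in Ctrl and 1.10 and 1.66 in LSD1skm-/- muscle, so the groups overlapped. Relative to Myh7, 6 of the other 8 members were higher in both LSD1skm-/- libraries than in all Ctrl libraries, which also held for 98.7% of all genes, and Tnnc1 and Myh7b were the exceptions. Against Ctrl replicates 1 to 3 alone this held for 7 of the 8, all but Tnnc1, and for 99.2% of all genes.

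Other genes linked to slow fibers were counted in the same way. Of 18 such genes, 17 were tested and 9 had lower estimates, with a median log2 fold change of -0.05 (0.01 without the library labelled Ctrl replicate 4). At an unadjusted p under 0.05 in edgeR's test 4 were lower and 0 higher, against 3.88% and 5.02% of all genes. They were Csrp3, Ankrd2, Fhl1 and Smpx, with log2 fold changes of -0.93, -0.62, -0.38 and -0.37. Csrp3, which encodes a protein of the Z-disc, stood at 83.0, 76.0, 131 and 76.3 CPM in Ctrl replicates 1 to 4 and at 38.9 and 56.9 CPM in LSD1skm-/- replicates 1 and 2, with the same highest and lowest library as the troponin genes. Tpm2 and Actn2, abundant in both fiber types, had values of 0.08 and 0.09, and Casq2, the calsequestrin of slow and cardiac muscle, had 0.38. Of these genes, Smpx passed an adjusted p under 0.05 without the library labelled Ctrl replicate 4 in edgeR's quasi-likelihood test (log2 fold change -0.46). Mybpc1 and Myoz2 had log2 fold changes of -0.61 and -0.60 in that comparison, past an unadjusted p of 0.05 only, as was Casq2 with 0.57. Of 11 fast-fiber genes other than the counterparts, 1 was lower and 0 higher at an unadjusted p under 0.05, with a median of -0.14 (-0.18 without the library labelled Ctrl replicate 4). That gene was Mylk2, which encodes the kinase of the fast regulatory light chain, with -1.03. Mylk2 stood at 1013, 1175 and 1188 CPM in Ctrl replicates 1 to 3, at 482 CPM in the library labelled Ctrl replicate 4 and at 504 and 439 CPM in the LSD1skm-/- libraries, so it followed Kdm1a and not the slow-twitch genes. Its log2 fold change was -1.25 without the library labelled Ctrl replicate 4, and it then passed an adjusted p under 0.05 in edgeR's quasi-likelihood test.

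Among 39 regulators of fiber type, 5 were lower and 1 higher at an unadjusted p under 0.05, against 3.88% and 5.02% of all genes, with a median of -0.08 (-0.14 without the library labelled Ctrl replicate 4). The lower ones were Eya4 (-0.61), Lmcd1 (-0.47), Eya1 (-0.44), Tead1 (-0.36) and Hdac5 (-0.29) in log2 fold change, and the higher one was Esrrb (0.61). Lmcd1, which encodes a cofactor of calcineurin signaling, stood at 102, 112, 105 and 111 CPM in Ctrl replicates 1 to 4 and at 67.2 and 88.3 CPM in LSD1skm-/- replicates 1 and 2, with the library labelled Ctrl replicate 4 among the other Ctrl libraries. Esrrb, a nuclear receptor linked to oxidative fibers, stood at 6.71, 5.36, 5.74 and 8.44 CPM in Ctrl and at 9.86 and 10.2 CPM in LSD1skm-/- muscle. Without the library labelled Ctrl replicate 4, 13 of the 39 were lower and 2 higher at an unadjusted p under 0.05, and edgeR called 4 at an adjusted p under 0.05, with Eya1 and Eya4 lower and Esrrb and Vgll3 higher. The shares of all genes in that fit were 7.72% lower and 12.5% higher at the unadjusted p, and 1.02% lower and 4.36% higher at the adjusted p. Camk2a, which encodes a calcium-dependent kinase, had a log2 fold change of -0.08 with all 6 libraries.

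Several slow isoforms are shared with the heart, and the cardiac list was therefore read beside them. Of 10 cardiac genes, 7 had rows and 3 were tested. Mybpc3 and Myl7 had at most 1 read in any library, and Tnni3 at most 27. Actc1, the cardiac actin that skeletal muscle also makes during growth and repair, stood at 299, 600, 258 and 3132 CPM in Ctrl replicates 1 to 4 and at 2384 and 4331 CPM in LSD1skm-/- replicates 1 and 2. It separated the libraries as Kdm1a did, with the library labelled Ctrl replicate 4 on the side of the LSD1skm-/- libraries, unlike the slow-twitch genes. Its log2 fold change was 1.65 with all 6 libraries and 3.12 without the library labelled Ctrl replicate 4, when it passed an adjusted p under 0.05 in edgeR's quasi-likelihood test. Myl4 and Tnnt2 had log2 fold changes of 0.00 and -0.61. The median of the 3 genes tested was 0.00 (0.25 without the library labelled Ctrl replicate 4). In a list drawn up for muscle spindles and developmental fibers, 4 of 6 genes were tested. Their median was -0.23 (-0.27 without the library labelled Ctrl replicate 4), and 0 passed an unadjusted p of 0.05 with all 6 libraries. Without that library Myh14 was lower (-0.41) and Etv4 higher (1.10) at that p. Myh14 encodes a non-muscle myosin heavy chain, so the median is not of spindle and developmental fibers alone. Of the genes listed, Myh3 stood at 4.95, 5.85, 8.64 and 6.29 CPM in Ctrl replicates 1 to 4 and at 4.92 and 4.33 CPM in LSD1skm-/- replicates 1 and 2.

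Markers of some other cells also differed between the groups, and of all genes 3.88% were lower and 5.02% higher at an unadjusted p under 0.05 with all 6 libraries. Of 6 adipocyte genes tested, 5 were lower at an unadjusted p under 0.05, with a median log2 fold change of -4.23. Summed over the 8 genes of that list, of which Fabp4 was the most abundant, the level was 352, 306, 172 and 492 CPM in the 4 Ctrl libraries and 166 and 178 CPM in the LSD1skm-/- libraries. Ctrl replicate 3, the library with the most slow-twitch transcripts, was near the LSD1skm-/- libraries for these markers. Adipoq was at 0.783 CPM there, against 9.70 to 19.6 CPM in the other Ctrl libraries and 0.126 and 0.558 CPM in the LSD1skm-/- libraries, and none of the 8 genes was at 0 in all libraries. All 6 fibroblast genes had higher estimates, 3 of them at an unadjusted p under 0.05 (median 0.36), and their summed level, led by Dcn, was 458, 430, 476 and 699 CPM in Ctrl and 608 and 717 CPM in LSD1skm-/- muscle. All 5 blood genes had higher estimates, 4 at an unadjusted p under 0.05 (median 0.67), with sums of 43.7, 28.2, 36.6 and 52.2 CPM in Ctrl and 64.1 and 65.8 CPM in LSD1skm-/- muscle, mostly Hbb-bs. Of 6 endothelial genes, 2 were lower at an unadjusted p under 0.05 (median -0.37), with sums led by Cdh5 of 177, 180, 191 and 232 CPM in Ctrl and 151 and 149 CPM in LSD1skm-/- muscle. Without the library labelled Ctrl replicate 4 the medians were -3.84 for the adipocyte, 0.52 for the fibroblast, 0.83 for the blood and -0.29 for the endothelial genes. In that comparison all 6 fibroblast and all 5 blood genes were higher at an unadjusted p under 0.05, against 12.5% of all genes. Of these, Col3a1, Lum, Alas2 and Hbb-bs passed an adjusted p under 0.05 in edgeR's quasi-likelihood test, as did 4.36% of all genes in that direction. The part of any of these cells in the difference of the slow-twitch genes was not tested.

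Other lists showed smaller or mixed differences. Of 4 smooth muscle genes tested, Myh11 was lower at an unadjusted p under 0.05 (median -0.31), with sums led by Smtn of 111, 106, 120 and 165 CPM in Ctrl and 98.2 and 115 CPM in LSD1skm-/- muscle. Of 4 immune genes tested, 0 passed with all 6 libraries (median 0.29), with sums led by Csf1r of 25.4, 22.4, 8.09 and 13.6 CPM in Ctrl and 11.7 and 17.9 CPM in LSD1skm-/- muscle. Of the 8 skeletal muscle genes, 1 was lower at an unadjusted p under 0.05, Ttn, with a log2 fold change of -0.39, and the median was -0.12. Without the library labelled Ctrl replicate 4 the medians were -0.04 for smooth muscle, 0.36 for immune and -0.22 for skeletal muscle genes, and the immune gene Adgre1 was higher at an unadjusted p under 0.05. In that comparison Ttn (-0.38) no longer passed that p, and Des, with a log2 fold change of -0.33, was lower at it. The immune median turned to -0.46 when every gene with at least 1 count was kept and to -0.28 without LSD1skm-/- replicate 2.

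**Figure D4:**
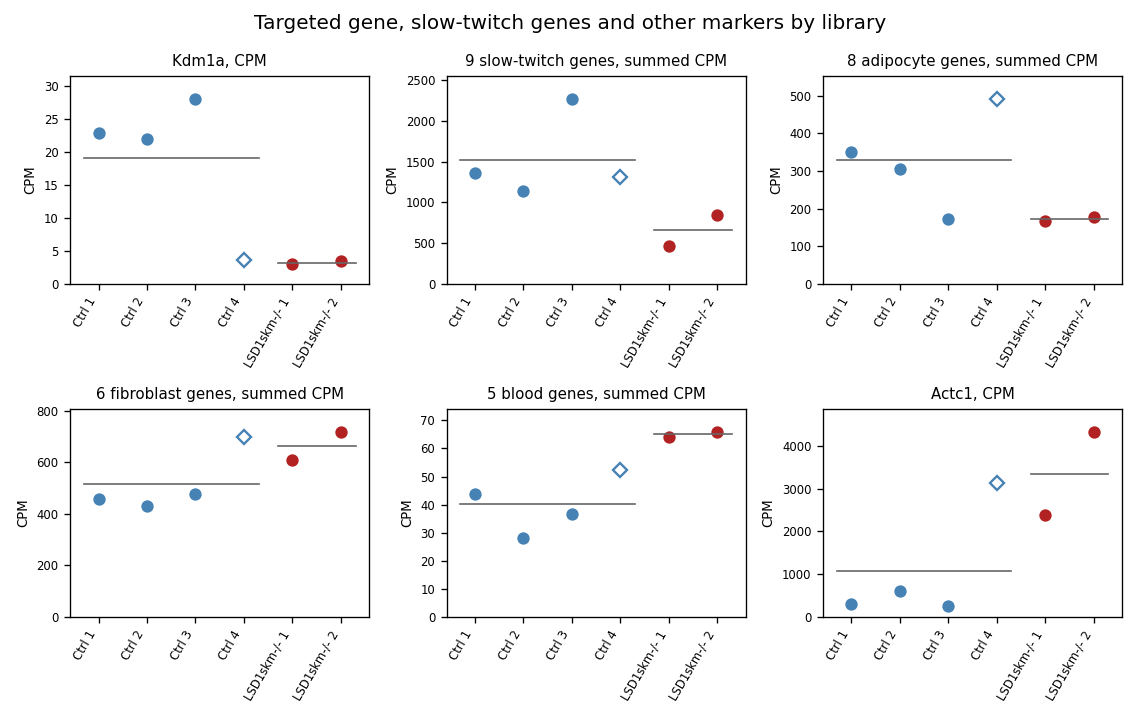
CPM of Kdm1a and Actc1 and summed CPM of the slow-twitch, adipocyte, fibroblast and blood lists in each library, on linear axes that start at 0, blue for Ctrl and red for LSD1skm-/-, with lines at the group means. The library labelled Ctrl replicate 4 (open diamond) lies with the LSD1skm-/- libraries for Kdm1a and Actc1 and with the Ctrl libraries for the slow-twitch genes.

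Genes outside these lists were ranked by how closely their log2 CPM followed the mean of the 9 slow-twitch genes over the 6 libraries, among 842 genes with an SD of at least 0.5. The 10 highest were Map3k7cl, Npy1r, Bend7, Usp6nl, Sbk3, Tceal7, Cadm4, Tnfrsf12a, Gm45716 and Gdf11, with Pearson's r from 0.98 to 0.82. The libraries share their group, so r describes the order of these 6 libraries and no more. Map3k7cl stood at 13.9, 13.7, 17.3 and 13.4 CPM in Ctrl replicates 1 to 4 and at 6.37 and 8.56 CPM in LSD1skm-/- replicates 1 and 2, with the highest and lowest library the same as in the slow-twitch genes. Sbk3, at 1.27, 1.14, 2.75 and 1.37 CPM in Ctrl and 0.756 and 1.09 CPM in LSD1skm-/- muscle, had the same rank order as the mean of the 9 genes (Spearman's rho of 1). Of the 10, 1 gene was also among the 10 highest when no SD was required.

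Promoters of the members were searched for short motifs because most members had lower values together. RefSeq's promoter table on GRCm38.p6 had entries for 8 of the 9, and 7 had a start within 50 bases of a coding transcript's start. In the 250 bases upstream, the E-box CANNTG was found on either strand in 7 of 7, against 66.2% of 32851 promoters of all genes. GGAATG was found in 2 of 7 (Myl3 and Tnnc1) against 12.6%, and TATATA in 2 of 7 (Myh7 and Tnnc1) against 5.25%. The windows searched run from the start in the promoter table, which for Myh7 is chr14:54994549. The TATATA match of Myh7, 31 to 26 bases before that start, lies in an annotated exon of the gene and so outside the stretch shown above. TATAAA was found in Tnnt1 against 12.4%, AGAACA in Tnni1 against 16.1% and the CArG box in Myl3 against 1.47%. The MEF2 motif (2.92% of all promoters), the NRF1 motif (1.58%) and the full glucocorticoid response element (0.0944%) had 0 matches among the 7. Such matches describe letters in these windows and are not measured binding.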

How the data were processed

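RNA-seq was done on polyadenylated RNA with a kit that marks strand. The deposited counts per gene were whole numbers, not normalized. Per the methods of the study, the authors mapped single-end reads of 50 bases to mm10 and kept uniquely aligned reads. Those methods name htseq-count for mapping and HOMER for quantification, and no aligner is given in the sources used here. The submitters' processing notes name bcl2fastq 2.20.0.422, another version than the methods.

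The counts of 6 libraries were used as deposited, and 0 rows lacked a gene name. Genes averaging more than 50 counts across libraries were compared with edgeR 4.0.16 in R 4.3.3 (TMM scaling, quasi-likelihood test, Benjamini-Hochberg adjustment over 11364 genes), and the same genes were kept when a library was left out. Standard errors were derived from the fold change and the F statistic. DESeq2 1.42.0 and other scalings, filters, a replicate block and left-out libraries were alternatives, and edgeR and DESeq2 were tested on simulated data. Log2 CPM used a prior count of 2. Libraries held from 30654828 to 41278769 counts, and members from 44 to 17584 reads, with the fewest for Myh7b, where counting error weighs most. In each pair of libraries the chi-square of the counts was 32.9 to 127 per degree of freedom, so none was taken as a repeat, and the lowest was between the library labelled Ctrl replicate 4 and LSD1skm-/- replicate 1. Nothing in the labels says that replicates are separate mice, so p-values measure the spread between libraries.

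Members, lists and rules were chosen with earlier results of these data known. Named genes are the 9 members, Kdm1a, the fast counterparts, list genes past an unadjusted p of 0.05 with or without the library labelled Ctrl replicate 4, the 3 most abundant of each list, of which some are given here, and the 10 most alike. Genes that overlap members are named for their position. GENCODE vM21 gave coordinates and lengths on GRCm38, which is the authors' mm10, and sequences were taken from RefSeq (GRCm38.p6). Nppa, Nppb, Nkx2-5 and the symbol Myl11 were not analysed here, whereas Mylpf was, as a fast counterpart. The result of 1 list of markers is not reported here.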

Additional observations from a re-analysis of the deposited data

Results flagged for a closer look

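In a group of 4 libraries, a value was marked when the gap of the highest or lowest library to its neighbour exceeded Dixon's limit, as a share of the range of the group on a log2 scale. Of 108 values examined in Ctrl, 15 were marked. The limit marks about 1 in 20 by chance, but that share is no fair measure here. Some genes were named for results that depended on these same libraries, and all values come from the same 4 libraries. Ctrl replicate 3 stood apart for Myh7 (gap 0.869 of the range), for the ratio of Tnnt1 to Tnnt3 (0.860), and for Csrp3 (0.839), Map3k7cl (0.844) and Ckm (0.955), in each as the highest. It was the lowest for Myl1 (0.834) and for the adipocyte genes Cfd (0.911), Cidec (0.896) and Retn (0.868). The library labelled Ctrl replicate 4 stood apart for Kdm1a (0.879), Purb (0.871), Col3a1 (0.932), Alas2 (0.932) and Usp6nl (0.856). Ctrl replicate 1 stood apart for Myh1 (0.897). Of the 9 slow-twitch genes, 1 was marked.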

How the results depend on the processing

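All 9 slow-twitch genes kept a negative log2 fold change under each of 14 alternatives, 126 values from -3.28 to -0.01, and 24 of these had an adjusted p under 0.05 in edgeR or DESeq2. The number of all genes at an adjusted p under 0.05, 0 by edgeR with 6 libraries, was 46 by DESeq2 and 149 with every gene of at least 1 count, when 8 of the 9 were called (all but Myl3). It was from 0 to 612 by edgeR when a Ctrl library was left out, with 6 for the fit lacking Ctrl replicate 3. The highest of these counts was without the library labelled Ctrl replicate 4. DESeq2 was run without that library only, and called 1056 genes. Genes at an unadjusted p under 0.05 and a fold change outside 0.77 to 1.3 numbered 717, 1909 with every gene of at least 1 count, 1664 by DESeq2 without the library labelled Ctrl replicate 4, and from 340 to 1724 with libraries left out. The median of the 9 genes ranged from -2.44 without LSD1skm-/- replicate 2 to -0.96 without LSD1skm-/- replicate 1, and from 4 to 8 of them had an unadjusted p under 0.05. A single LSD1skm-/- library left in a fit is assumed to vary like Ctrl. The causes were not tested.

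With the replicate number as a block (replicate block), 632 genes were called, 6 of the 9 among them (Myh7, Tnnt1, Tnni1, Tnnc1, Tpm3 and Atp2a2), and 1668 passed the unadjusted p and fold change. Only replicates 1 and 2 enter that contrast, nothing says that they share a litter or day, and their deviations correlated across genes at -0.233 and -0.033.

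Signs changed in the values that follow. Atp2a1 was 0.01 with 6 libraries and -0.003 with every gene of at least 1 count, -0.032 by DESeq2 without the library labelled Ctrl replicate 4 and between -0.022 and 0.078 with libraries left out, 0 among them. Left-out libraries gave ranges of -0.084 to 0.22 for Myh2, -0.127 to 0.172 for Mylpf, -0.186 to 0.024 for Tnni2, -0.258 to 0.004 for Tnnc2 and -0.564 to 0.139 for the ratio of Myl3 to Myl1. Among list medians, the immune genes ranged from -0.458 to 0.653, the cardiac genes from -0.241 to 0.613, smooth muscle from -0.474 to 0.018, other slow-fiber genes from -0.23 to 0.014, regulators from -0.193 to 0.001 and fast counterparts from -0.166 to 0.011. The causes were not tested.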
